A study of Mus musculus with 16 samples.

Results

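Glucocorticoid-induced genes and metallothioneins were followed as 9 named genes of the 55421 listed in each count table: Nr3c1, Fkbp5, Tsc22d3, Zbtb16, Sgk1, Dusp1, Cdkn1a, Mt1 and Mt2. They were taken by symbol, as a set chosen with earlier results of these data known, and all 9 were measured in each of the 16 libraries, with a lowest count of 125 (Zbtb16 in liver). The study compared mouse macrophages of white adipose tissue (WAT) and of liver, as its labels name them, after blockade or deletion of GPR132, a G protein-coupled receptor. RNA-seq libraries from C57BL/6 mice on HFD, the high-fat diet of the design text, made 4 groups in each tissue with 2 libraries per group. In fl/fl mice (genotype GPR132fl/fl) given vehicle, Gpr132 carries loxP sites and no Cre is listed. A second group was fl/fl mice given the antagonist NOX_6_18. The other 2 groups, called CKO in the titles, were Lyz2_cre+/_GPR132fl/fl mice given vehicle or NOX_6_18. Cre in these mice is expressed from Lyz2, a gene of myeloid cells, so other cell types keep the floxed gene intact. CKO is used here as labelled, since the check of the targeted gene given with the libraries goes partly against it. Floxed Gpr132 and the diet were common to all 8 groups, and treatment was known only from the sample titles. The sources used here do not give dose, duration, age, sex or the number of animals behind a library, so p-values measure only the spread between libraries, which may be technical.

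Glucocorticoids act through the receptor encoded by Nr3c1, which waits in the cytoplasm with heat shock protein chaperones, binds corticosterone, enters the nucleus and binds response elements near its target genes. Fkbp5, Tsc22d3, Zbtb16, Sgk1 and Dusp1 are widely used readouts of that receptor in many cell types. In macrophages these targets are known for restraint of inflammatory signalling, and in liver the same hormone drives gluconeogenic enzymes. Mt1 and Mt2 encode metallothioneins, small cysteine-rich proteins that bind zinc and copper, and their genes respond to metals through the factor MTF1 as well as to glucocorticoids.

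Each library held between 45624957 and 60761705 counts. Gpr132, the targeted gene, had 72.5 and 69.7 CPM (counts per library size, scaled within a tissue by the trimmed mean of M values) in the WAT controls, the fl/fl vehicle libraries. It had 35.6 and 64.5 CPM in the WAT libraries labelled CKO on vehicle, and the other 4 WAT libraries lay at 56.5 to 60.3 CPM, and no WAT comparison called it (smallest edgeR adjusted p = 0.115). Liver controls had 4.26 and 4.04 CPM of Gpr132 and the other 6 liver libraries 1.46 to 2.81 CPM. It was lower both in fl/fl on NOX_6_18 (adjusted p = 0.0313) and in CKO on vehicle (adjusted p = 0.0162), and CKO did not differ from fl/fl on NOX_6_18 past the threshold (log2 fold change 0.47, adjusted p = 1.0). Which exons were deleted is not given, and counts over the whole gene need not show it. Each tissue's 2 controls were set apart from its other 6 libraries: component 1 of a principal component analysis took 72.2% of the variance in WAT and 25.0% in liver, and put the controls at 226 and 220 against -75.5 to -72.2 in WAT and at 58.6 and 77.3 against -26.0 to -19.8 in liver. They are also the whole control group of the comparisons below, so what sets these libraries apart and what sets the group apart cannot be told apart. The share of all genes whose controls lay outside the range of the other 6 libraries is not given. Where a gene below shows such a separation, it is therefore a description and not a trait of that gene. Macrophage markers were present throughout (11 of 11 measured in WAT and in liver), with Adgre1 at 608 to 629 CPM in the WAT controls and 359 to 372 CPM in the other 6 WAT libraries. The labels call the samples macrophages while the extraction protocol describes frozen tissue. Liver libraries also held Alb at 1740 to 2020 CPM and other hepatocyte genes, and WAT libraries held collagen genes and, outside the controls, testis genes whose values are given with the WAT results.

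Promoters are shown for the 2 metallothionein genes, which rose together in liver, and for Sgk1, which moved in opposite directions in the 2 tissues. They were picked with these results known, and a link between their letters and the changes was not tested. RefSeq windows (GRCm38.p6) from 250 bases before to 50 after each annotated start were searched on both strands for the metal response element in 2 forms (TGCACNC and TGCGCNC) and for the glucocorticoid receptor half-site TGTTCT. None of the matches in these 7 genes overlapped another. Windows were in the table for 7 of the 9 genes. The Mt2 window at chr8:94172368-94172667 (plus strand) and the Mt1 window at chr8:94178839-94179138 (plus strand) are shown with metal elements in capitals. One of the 6 Sgk1 windows, at chr10:21993640-21993939 (plus strand), is shown with half-sites in capitals.
Mt2: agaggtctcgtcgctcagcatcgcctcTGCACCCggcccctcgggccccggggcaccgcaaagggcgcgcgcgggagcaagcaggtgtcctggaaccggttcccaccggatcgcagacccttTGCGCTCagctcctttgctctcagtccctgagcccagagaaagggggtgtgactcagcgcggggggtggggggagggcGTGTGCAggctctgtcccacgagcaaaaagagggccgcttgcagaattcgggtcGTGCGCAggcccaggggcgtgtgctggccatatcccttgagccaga
Mt1: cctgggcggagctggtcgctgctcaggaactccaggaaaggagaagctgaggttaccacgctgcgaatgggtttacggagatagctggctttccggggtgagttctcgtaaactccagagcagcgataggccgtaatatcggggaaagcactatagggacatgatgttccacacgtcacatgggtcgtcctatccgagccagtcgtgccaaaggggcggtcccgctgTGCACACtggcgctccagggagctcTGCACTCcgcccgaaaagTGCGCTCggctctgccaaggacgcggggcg
Sgk1: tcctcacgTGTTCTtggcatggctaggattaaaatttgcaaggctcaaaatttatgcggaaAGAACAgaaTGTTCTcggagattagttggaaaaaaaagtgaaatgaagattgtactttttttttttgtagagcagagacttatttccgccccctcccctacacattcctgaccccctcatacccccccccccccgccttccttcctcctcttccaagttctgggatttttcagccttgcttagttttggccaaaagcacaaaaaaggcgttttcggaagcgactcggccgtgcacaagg
The Mt2 window held 4 metal elements and the Mt1 window 3. The Dusp1 window held 1, as did 1 of the Sgk1 windows, other than the one shown. Those of Fkbp5, Tsc22d3 and Cdkn1a had 0. At least 1 metal element was found in 25.7% of all 32851 windows, at least 3 in 1.97% and at least 4 in 0.517%. Sgk1 had 5 half-sites over its 6 windows, 3 of them in the window shown, where the pair from -189 to -184 and from -180 to -175 lie on opposite strands (positions count from 0 at the start). A half-site was found in 19.0% of all windows and 3 or more in 0.31%. These shares are per window, whereas the window shown held the most half-sites of the 6 Sgk1 windows. Tsc22d3 had 1 half-site in 3 windows, and the windows of Fkbp5, Dusp1, Cdkn1a, Mt1 and Mt2 had 0 with these letters. The motif search describes letters and shows no binding.

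Fkbp5 encodes a co-chaperone that lowers the hormone affinity of the glucocorticoid receptor and is itself induced by it, a negative feedback loop. It was the most clearly changed of the 9 genes in both tissues (chr17:28399094-28517527, minus strand, GRCm38). In WAT, Fkbp5 stood at 88.5 and 91.5 CPM in the controls, 244 and 251 CPM in fl/fl on NOX_6_18, 251 and 240 CPM in CKO on vehicle, and 241 and 217 CPM in CKO on NOX_6_18. Both control libraries lay below every other WAT library. In liver the controls were lowest as well, with 33.2 and 30.5 CPM in the controls, 80.4 and 78.8 CPM in fl/fl on NOX_6_18, 86.7 and 81.8 CPM in CKO on vehicle, and 83.6 and 85.5 CPM in CKO on NOX_6_18. With NOX_6_18 in fl/fl mice Fkbp5 rose 2.75-fold in WAT (log2 fold change 1.46, SE 0.07, edgeR quasi-likelihood test with Benjamini-Hochberg adjustment, adjusted p = 1.57e-06) and 2.50-fold in liver (1.32, SE 0.07, adjusted p = 1.96e-05). CKO against fl/fl on vehicle gave a log2 fold change of 1.45 in WAT (SE 0.07, adjusted p = 1.62e-06) and of 1.40 in liver (SE 0.07, adjusted p = 1.35e-05). These comparisons share the 2 fl/fl vehicle libraries of their tissue. In RNA from bulk samples, fewer cells of a type and less RNA per cell cannot be told apart.

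**Figure D1:**
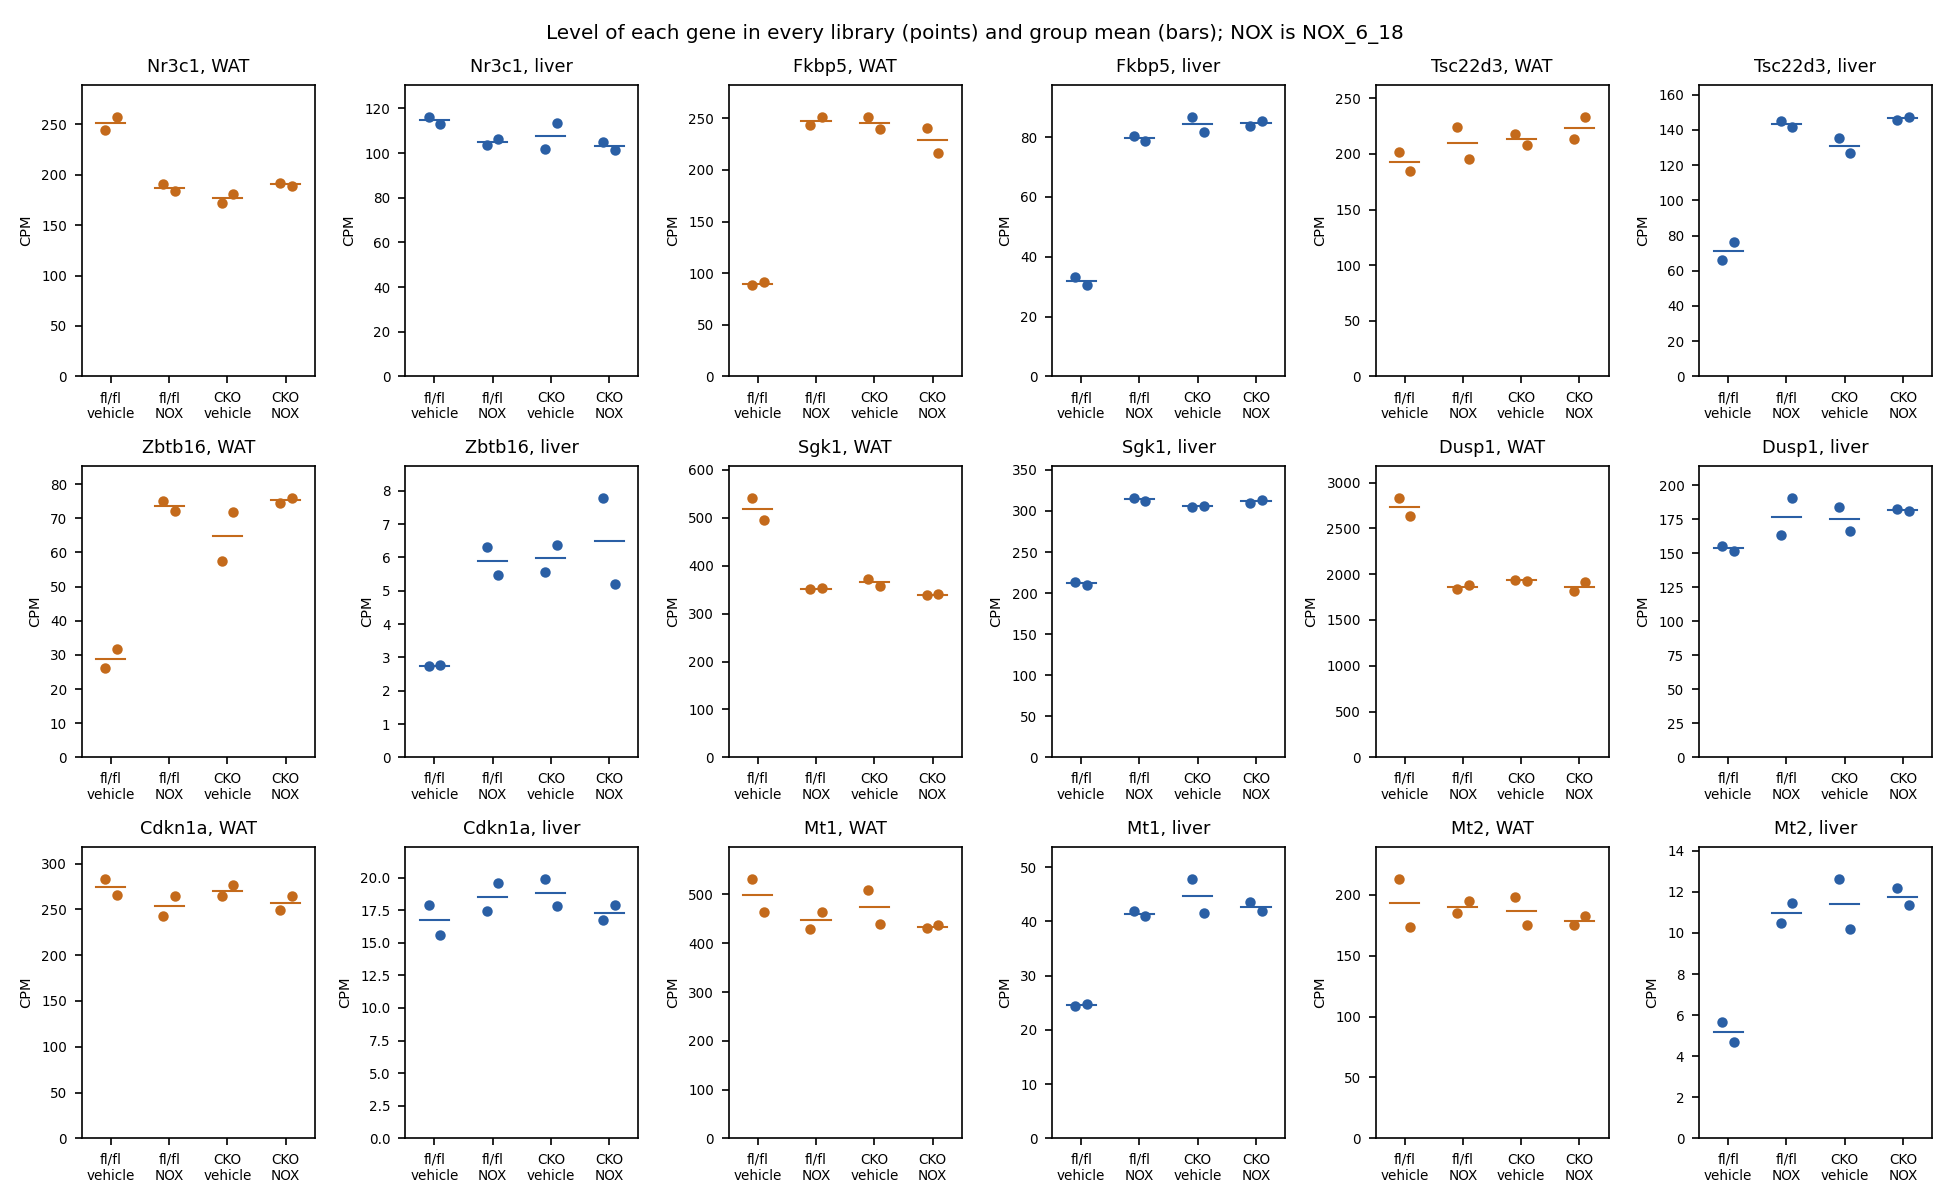
CPM of each of the 9 genes in WAT and liver (vertical axis from 0, own scale in each panel) by group, with each library as a point and the mean of the 2 as a short line. The fl/fl vehicle libraries are lowest for Fkbp5 and Zbtb16 in both tissues and for Tsc22d3, Sgk1, Dusp1, Mt1 and Mt2 in liver, and highest for Nr3c1, Sgk1 and Dusp1 in WAT. The share of all genes set apart in this way is not given.

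Nr3c1 encodes the glucocorticoid receptor itself (minus strand, 7684 bases of exon). Its WAT level was 245 and 257 CPM in the controls, 190 and 183 CPM in fl/fl on NOX_6_18, 172 and 181 CPM in CKO on vehicle, and 192 and 189 CPM in CKO on NOX_6_18. The receptor transcript was therefore highest where Fkbp5 was lowest, with no overlap between the control and the other 6 libraries. Nr3c1 fell by 0.42 on the log2 scale with NOX_6_18 in fl/fl (SE 0.06, edgeR adjusted p = 0.00092) and by 0.51 in CKO on vehicle (SE 0.06, adjusted p = 0.000339). Scaled by library totals alone, the first of these fell by 0.26 and still passed (adjusted p = 0.0126). In liver Nr3c1 was 116 and 113 CPM in the controls and 101 to 114 CPM in the other 6 libraries, and the groups overlapped. Neither liver comparison called it (log2 fold changes -0.13 and -0.09, edgeR adjusted p = 0.346 and 0.537).

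Tsc22d3, whose product GILZ binds and restrains NF-kappaB and AP-1, separated the 2 tissues (chrX:140539528-140600659, minus strand). Liver libraries held 65.9 and 76.3 CPM in the controls, 145 and 142 CPM in fl/fl on NOX_6_18, 135 and 127 CPM in CKO on vehicle, and 146 and 147 CPM in CKO on NOX_6_18. The control pair lay far below the rest. Tsc22d3 rose 2.02-fold with NOX_6_18 (log2 fold change 1.01, SE 0.07, edgeR adjusted p = 0.000139) and 1.84-fold in CKO on vehicle (0.88, SE 0.07, adjusted p = 0.000279). WAT libraries held 202 and 184 CPM in fl/fl on vehicle against 196 to 233 CPM in the other 6, with overlap. There the log2 fold changes were 0.12 (SE 0.09, adjusted p = 0.314) and 0.14 (SE 0.09, adjusted p = 0.234). Library totals alone moved both past the threshold (0.29, adjusted p = 0.0304, and 0.31, adjusted p = 0.0228), and correction for each library's trend on GC content and gene length turned the first to -0.03.

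Zbtb16 (PLZF) is a zinc finger transcription factor, induced by glucocorticoids in many cell types and also known as a marker of spermatogonia and of innate-like lymphocytes (chr9:48654297-48836222, minus strand). In WAT it had 26.2 and 31.6 CPM in the controls, 75.2 and 72.2 CPM in fl/fl on NOX_6_18, 57.5 and 72.0 CPM in CKO on vehicle, and 74.6 and 75.9 CPM in CKO on NOX_6_18. No WAT library of the other 3 groups came near the control pair. Zbtb16 rose by 1.35 on the log2 scale with NOX_6_18 in fl/fl (SE 0.13, edgeR adjusted p = 8.07e-05) and by 1.16 in CKO on vehicle (SE 0.13, adjusted p = 0.000193). The liver levels were the lowest of the set, at 2.75 and 2.76 CPM in the controls and 5.20 to 7.78 CPM in the other 6 libraries. Liver log2 fold changes were 1.10 (SE 0.22, adjusted p = 0.0238) and 1.12 (SE 0.22, adjusted p = 0.021). Leaving out any 1 library of the 2 groups compared ended either liver call, with adjusted p between 0.0639 and 0.123 for NOX_6_18 (fl/fl vehicle 1 or 2, fl/fl NOX_6_18 1 or 2) and between 0.0606 and 0.111 for CKO (fl/fl vehicle 1 or 2, CKO vehicle 1 or 2).

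Genes of other cell types moved with these WAT results. Spermatocyte markers summed to 5.27 to 5.31 CPM in the controls and 193 to 205 CPM in the other 6 WAT libraries, with 8 of 9 called higher with NOX_6_18 in fl/fl. For spermatids the sums were 21.2 to 25.3 CPM and 767 to 839 CPM (9 of 9 higher; Prm1 2.60 to 2.99 and 127 to 143 CPM), and for Leydig cells 30.5 to 31.7 CPM and 279 to 326 CPM (8 of 8 higher; Insl3 1.20 to 2.06 and 171 to 216 CPM). Spermatogonium markers, which bear on Zbtb16, summed to 124 to 128 CPM and 105 to 112 CPM. Of 10 fitted 4 were higher and 3 lower, with Gfra1 at 5.23 to 6.67 and 10.8 to 14.1 CPM, and Id4 at 25.7 to 27.0 and 19.1 to 22.3 CPM. None of the listed markers of these 4 testis cell types was at 0 in all 8 WAT libraries. Macrophage markers fell instead (9 of 11 lower, sums 10200 to 11000 CPM and 7190 to 7470 CPM), as did those of fibroblast and mesothelial cells (6 of 9 lower, 21500 to 22100 CPM and 11500 to 11800 CPM). Beside these counts, 24.6% of all genes fitted were called higher and 13.2% lower in WAT with NOX_6_18 in fl/fl. The sums of epididymal and other epithelium (383 to 423 and 1040 to 1130 CPM) and erythroid markers (1090 to 1270 and 2480 to 2850 CPM) were higher outside the controls, and those of neutrophil and mast cells (409 to 455 and 243 to 274 CPM), T and NK cells (77.8 to 81.6 and 38.6 to 47.0 CPM), endothelial cells (2060 to 2210 and 1500 to 1640 CPM) and adipocytes (2230 to 2440 and 1520 to 1700 CPM) lower. Some single markers went against these sums. The neutrophil markers S100a8 (0.475 to 0.629 and 1.01 to 2.05 CPM) and S100a9 (0.724 to 1.40 and 2.75 to 4.99 CPM) were higher outside the controls. Of the first 2 adipocyte markers, Adipoq (5.74 to 8.69 and 10.8 to 12.3 CPM) was higher and Plin1 (11.2 to 12.4 and 9.48 to 10.6 CPM) lower. Pck1, also on the adipocyte list, was higher too, as given below. The part of all these cell types in the WAT results of the 9 genes was not tested.

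Sgk1 encodes a serine/threonine kinase that controls ion channels and transporters and is induced by glucocorticoids and mineralocorticoids (chr10:21882184-21999903, plus strand). It fell in WAT and rose in liver. WAT libraries held 541 and 496 CPM in the controls, 351 and 353 CPM in fl/fl on NOX_6_18, 372 and 358 CPM in CKO on vehicle, and 338 and 341 CPM in CKO on NOX_6_18. Liver libraries held 213 and 210 CPM, 316 and 312 CPM, 305 and 306 CPM, and 310 and 313 CPM in the same order. In each tissue the control pair was outside the range of the other 6 libraries, above it in WAT and below it in liver. Sgk1 fell by 0.56 on the log2 scale with NOX_6_18 in WAT (SE 0.06, edgeR adjusted p = 0.000151) and rose by 0.57 in liver (SE 0.04, adjusted p = 9.05e-05). CKO on vehicle gave -0.51 in WAT (SE 0.06, adjusted p = 0.000269) and 0.53 in liver (SE 0.04, adjusted p = 0.000128). The difference between the tissues was itself called, at -1.12 for NOX_6_18 (SE 0.06, adjusted p = 6.51e-07) and -1.03 for CKO (SE 0.06, adjusted p = 1.38e-06).

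Dusp1 encodes a phosphatase that switches off p38 and JNK kinases and is both an immediate early gene and a glucocorticoid target (chr17:26505590-26562128, minus strand). An exon of Ergic1 on the opposite strand overlaps it, and the strand setting of the counting is not given, so its counts are uncertain. Its WAT level was 2831 and 2637 CPM in the controls, 1838 and 1885 CPM in fl/fl on NOX_6_18, 1939 and 1924 CPM in CKO on vehicle, and 1818 and 1910 CPM in CKO on NOX_6_18. The control pair again lay above all others. Dusp1 fell by 0.55 on the log2 scale with NOX_6_18 (SE 0.05, edgeR adjusted p = 4.24e-05) and by 0.50 in CKO on vehicle (SE 0.05, adjusted p = 7.68e-05). Liver libraries held 155 and 152 CPM in the controls and 163 to 191 CPM in the other 6, without overlap, yet the log2 fold changes of 0.20 and 0.19 (SE 0.08 each) missed the threshold (adjusted p = 0.213 and 0.243). Other immediate early genes fell in WAT as well: 12 of 18 were lower and 0 higher with NOX_6_18, beside 13.2% and 24.6% of all genes fitted, with a median log2 fold change of -0.41 beside 0.12. Fos was 3731 to 3991 CPM in the controls and 2509 to 2632 CPM in the other 6 (log2 fold change -0.60, adjusted p = 1.16e-05), and Klf6, Atf3 and Btg2 fell by 0.54, 0.61 and 0.57 on the log2 scale. In liver 2 of the 18 were higher (Klf2 and Klf4, by 0.84 and 0.65) and 3 lower, beside 3.78% and 1.74% of all genes, among them Jun and Fos (-0.77 and -0.57).

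Cdkn1a, which encodes the cell cycle inhibitor p21 and is a target of p53 as well as of the glucocorticoid receptor, was called in no comparison between groups of 1 tissue (chr17:29090976-29100727, plus strand; AC167363.2 overlaps it on the opposite strand). WAT levels ran from 242 to 283 CPM and liver levels from 15.6 to 19.9 CPM. One control library of each tissue lay outside the range of the other 6 and the other inside it. With NOX_6_18 in fl/fl the log2 fold change was -0.11 in WAT (SE 0.07, edgeR adjusted p = 0.25) and 0.14 in liver (SE 0.12, adjusted p = 0.614). Among 13 p53 target genes 4 were lower in WAT (Plk2 at -0.75, Bax, Gdf15 and Ccng1) and 0 higher, beside 13.2% and 24.6% of all genes. In liver Sesn2 was higher (0.53) and Gdf15 lower (-1.55), beside 3.78% higher and 1.74% lower of all genes.

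The 2 metallothionein genes lie side by side on chromosome 8, Mt2 at chr8:94172664-94173568 and Mt1 at chr8:94179082-94180327, with starts 6418 bases apart on the plus strand. Gm45774 overlaps Mt2 on the opposite strand, so Mt2 counts are uncertain. Both rose in liver. Mt1 had 24.4 and 24.7 CPM in the controls, 41.9 and 40.9 CPM in fl/fl on NOX_6_18, 47.8 and 41.6 CPM in CKO on vehicle, and 43.5 and 41.9 CPM in CKO on NOX_6_18. Mt2 had 5.64 and 4.68 CPM, 10.5 and 11.5 CPM, 12.6 and 10.2 CPM, and 12.2 and 11.4 CPM in the same order. Every library outside fl/fl on vehicle exceeded both control libraries for both genes. Mt1 rose 1.69-fold with NOX_6_18 (log2 fold change 0.76, SE 0.08, edgeR adjusted p = 0.00117) and 1.82-fold in CKO on vehicle (0.87, SE 0.08, adjusted p = 0.000544). Mt2 rose 2.13-fold (1.09, SE 0.16, adjusted p = 0.00538) and 2.21-fold (1.14, SE 0.16, adjusted p = 0.00408). The ratio of Mt1 to Mt2 counts was 4.32 and 5.28 in the liver control libraries and 3.57 to 4.09 in the other 6, and 2.33 to 2.68 over the 8 WAT libraries.

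**Figure D2:**
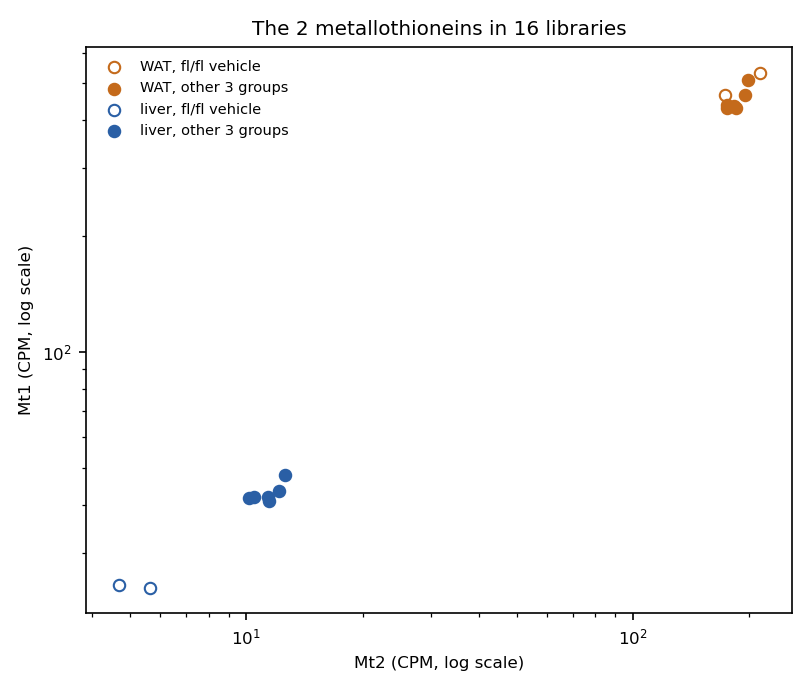
Mt1 against Mt2, both in CPM on log axes and each scaled within its tissue, for 16 libraries (open symbols, fl/fl on vehicle; filled symbols, the other 3 groups). The 8 WAT libraries form 1 cloud from 430 to 532 CPM of Mt1, while the 2 liver control libraries (24.4 and 24.7 CPM) sit below the other 6 (40.9 to 47.8 CPM).

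In WAT the metallothioneins showed no such step. Mt1 had 532 and 465 CPM in the controls and 430 to 509 CPM in the other 6 libraries, and Mt2 had 213 and 174 CPM and 175 to 199 CPM. The groups overlapped for both genes. With NOX_6_18 in fl/fl the log2 fold change was -0.16 for Mt1 (SE 0.09, edgeR adjusted p = 0.207) and -0.03 for Mt2 (SE 0.10, adjusted p = 0.872). These 2 values depended on the scaling: library totals alone gave 0.01 and 0.14, whereas with each library's trend on GC content and gene length removed they fell by 0.68 (adjusted p = 0.00109) and 0.53 (adjusted p = 0.004). For CKO on vehicle the same removal gave -0.62 for Mt1 (adjusted p = 0.00172) and -0.55 for Mt2 (adjusted p = 0.00343), against -0.07 and -0.05 without it (adjusted p = 0.575 and 0.767). Zinc and copper handling genes, the transporters and the metal sensor Mtf1, had 4 of 20 fitted genes higher and 4 lower in WAT with NOX_6_18, shares near the 24.6% and 13.2% of all genes (Slc39a1 -0.64, Slc39a8 0.59, Atp7b 2.78, Slc39a4 1.15). In liver 0 of 20 were called in either direction by edgeR, near the low shares of all genes there (3.78% higher and 1.74% lower). Oxidative stress genes, which also answer to metal load, gave 5 of 10 higher and 1 lower in WAT (Slc7a11 1.67, Gclm 0.62, Prdx1 -0.58). These stand beside the same 24.6% and 13.2%. In liver 1 was called each way (Hmox1 0.25, Nqo1 -0.64), beside 3.78% higher and 1.74% lower of all genes.

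Counted together, 2 of the 9 genes were higher (Fkbp5, Zbtb16) and 3 lower (Nr3c1, Sgk1, Dusp1) in WAT with NOX_6_18 in fl/fl, where 24.6% of the 25871 genes fitted were called higher and 13.2% lower. CKO on vehicle in WAT gave the same counts, beside 24.4% and 12.4% of all genes. The count higher was close to that background. The median log2 fold change of the 9 genes was -0.11 with NOX_6_18 beside 0.12 over all genes, and -0.05 with CKO beside 0.10. In liver 6 were higher (Fkbp5, Tsc22d3, Zbtb16, Sgk1, Mt1, Mt2) and 0 lower in both comparisons, beside 3.78% higher and 1.74% lower of 19515 genes for NOX_6_18 and 3.96% and 1.83% for CKO. Their medians were 0.76 beside -0.005 and 0.87 beside -0.007. The split of all WAT calls moved with scaling: 65.1% of calls with NOX_6_18 were higher, but 82.5% with library totals alone and 49.0% after the GC and length correction, and for CKO the shares were 66.3%, 83.5% and 50.3%. Those settings shifted the median of all WAT genes by 0.165 and -0.177 for NOX_6_18 on the log2 scale (0.165 and -0.165 for CKO), and Fkbp5, Zbtb16, Nr3c1, Sgk1 and Dusp1 kept their direction and call under both.

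**Figure D3:**
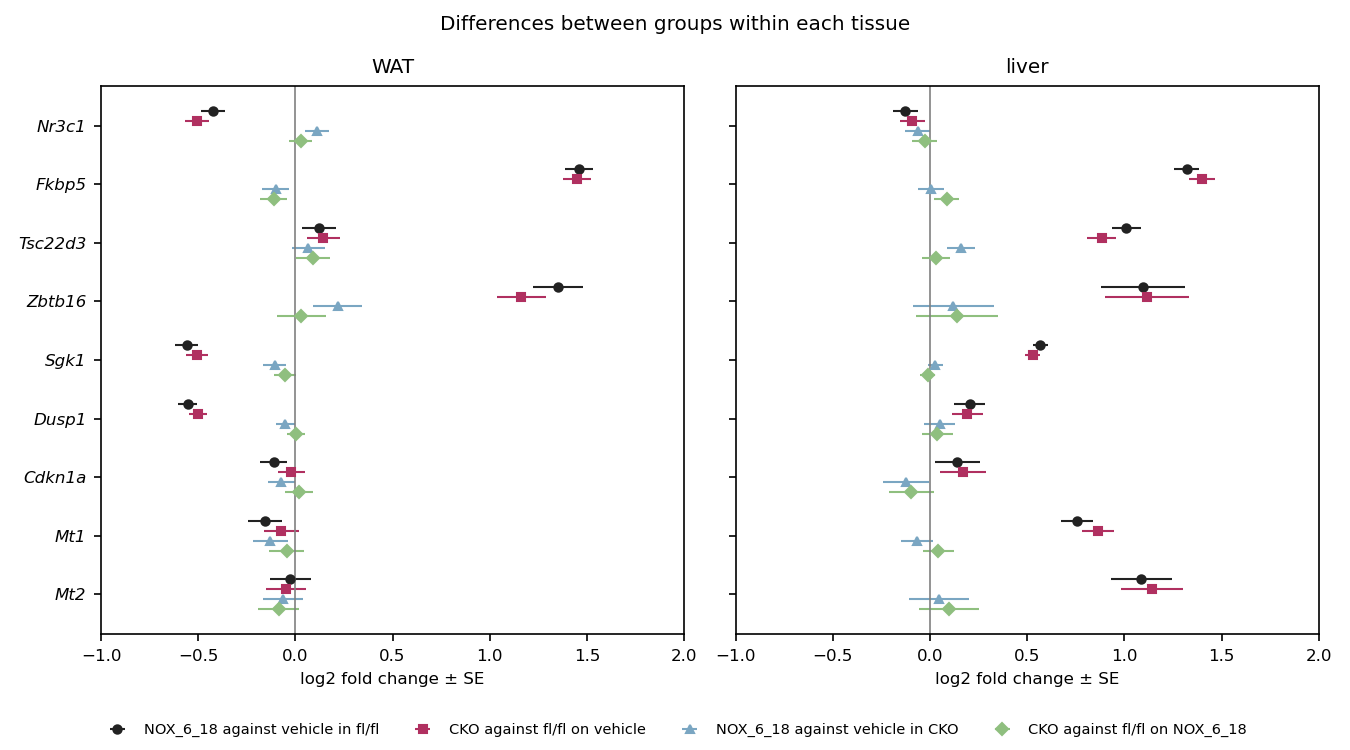
Log2 fold change with its SE for the 9 genes in the 4 comparisons within WAT and within liver. The comparisons against fl/fl on vehicle (circles and squares) lie side by side and away from 0 for 5 genes in WAT and 6 in liver, while the other 2 (triangles and diamonds) stay between -0.13 and 0.22.

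For NOX_6_18 in CKO mice and for CKO against fl/fl on NOX_6_18, 0 of the 9 genes passed the threshold in either tissue, which does not show that they did not differ. Over these 4 comparisons 0 of 9 were called by edgeR, DESeq2 or limma-voom, and 0 had an unadjusted p under 0.05 except 1 in liver for NOX_6_18 in CKO by DESeq2 and limma-voom. The background was as low: 0.0155% of genes for NOX_6_18 in CKO and 0.0348% for CKO on NOX_6_18 in WAT, and 0.0359% for each in liver. Log2 fold changes ran from -0.13 (Mt1, NOX_6_18 in CKO) to 0.22 (Zbtb16, same comparison) in WAT and from -0.12 (Cdkn1a) to 0.16 (Tsc22d3) in liver. The largest of the 9 values depended on single libraries: it was 0.39 in WAT for NOX_6_18 in CKO without CKO vehicle 2, and 0.10 without CKO vehicle 1. In liver, without CKO NOX_6_18 2, it was 0.38 for NOX_6_18 in CKO and 0.40 for CKO on NOX_6_18, against 0.16 and 0.14 with all libraries. For CKO on NOX_6_18 in WAT it was 0.19 without fl/fl NOX_6_18 1 and 0.15 without CKO NOX_6_18 1, against 0.09. The treatment by genotype interaction, which asks whether NOX_6_18 acted differently in CKO than in fl/fl mice, was called for 5 of the 9 genes in WAT, beside 25.3% of all genes, and for 4 in liver, beside 2.45%. In WAT it was -1.56 for Fkbp5 (SE 0.10, edgeR adjusted p = 1.18e-05), -1.13 for Zbtb16, 0.53 for Nr3c1, 0.45 for Sgk1 and 0.50 for Dusp1. In liver it was -1.31 for Fkbp5 (SE 0.09, adjusted p = 0.000271), -0.85 for Tsc22d3, -0.54 for Sgk1 and -0.82 for Mt1. Mt2 in liver narrowly missed it at -1.04 (SE 0.22, adjusted p = 0.0542), and passed with no filter, with a stricter filter, with DESeq2 and in a fit of all 16 libraries (adjusted p from 0.00828 to 0.0471). The interaction uses the fl/fl vehicle libraries too. Of all WAT interaction calls 26.5% were positive, 12.5% with library totals alone and 43.8% after the GC and length correction, which also called Mt1 (0.56, adjusted p = 0.0211).

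Other genes of the pathway were read from a list of 26 further glucocorticoid-induced genes. In liver 17 of the 26 were higher and 0 lower with NOX_6_18 in fl/fl, with a median log2 fold change of 0.86 beside -0.005 over all genes fitted, and in CKO on vehicle 18 were higher and 0 lower (median 0.93 beside -0.007). These counts stand beside 3.78% of all genes higher with NOX_6_18 and 3.96% with CKO. Pck1, the rate-limiting enzyme of gluconeogenesis, was 55.8 and 57.6 CPM in the controls and 194 to 200 CPM in the other 6 libraries (log2 fold change 1.81, SE 0.05, edgeR adjusted p = 6.31e-07). Tat, tyrosine aminotransferase and a classic glucocorticoid target of hepatocytes, was 38.3 and 39.2 CPM and 164 to 188 CPM (2.19, SE 0.07, adjusted p = 2.9e-06). The clock gene Per1 rose by 1.20 (adjusted p = 2.54e-05) and glutamine synthetase, Glul, by 0.87 (adjusted p = 2.6e-05). The groups did not overlap for any of these 4 genes, but they were named for the smallest adjusted p of the list, so this adds no support. Other genes of the list overlapped, such as Cebpb (16.6 to 20.3 CPM in the controls and 13.7 to 26.7 CPM in the other 6) and Txnip (517 to 553 and 448 to 635 CPM). G6pc, another enzyme of gluconeogenesis, named after its values were seen, had a log2 fold change of -0.69 (adjusted p = 0.0593), with 11.1 and 11.8 CPM in the controls and 6.61 to 9.74 CPM in the other 6 libraries.

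In WAT the same list was mixed, with 10 of 26 higher and 4 lower beside 24.6% and 13.2% of all genes (median 0.19 beside 0.12), and its counts moved with scaling to 15 higher and 1 lower with library totals alone, which shifted all WAT genes, and to 6 higher and 7 lower after the GC and length correction. CKO on vehicle in WAT gave 9 higher and 3 lower (median 0.20 beside 0.10), 16 and 1 with library totals alone and 7 and 6 after that correction. Pck1 was 3.83 and 4.11 CPM in the controls and 11.1 to 13.2 CPM in the other 6 WAT libraries (log2 fold change 1.49, edgeR adjusted p = 8.23e-05). Klf15, a transcription factor of amino acid metabolism, rose by 1.12 (adjusted p = 0.000123), the lipid phosphatase gene Lpin1 by 0.87 (adjusted p = 0.000343) and Fam107a by 0.63 (adjusted p = 0.000542). The 4 lower ones, named after their values were seen, were Angptl4 (-0.52), Txnip (-0.43), Cebpd (-0.37) and Nfkbia (-0.27). Differences between the tissues were not examined for the single genes of this list.

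**Figure D4:**
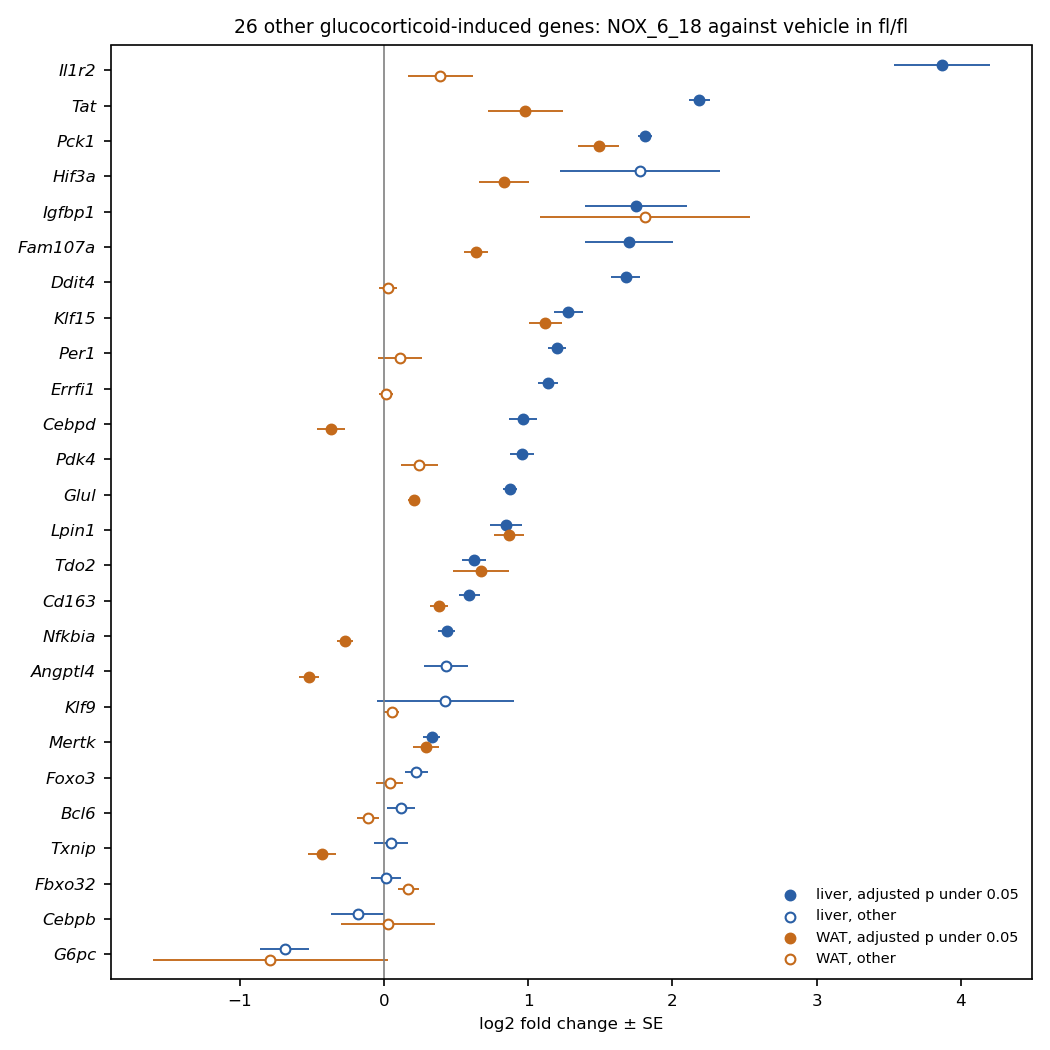
Log2 fold change with its SE for the 26 other glucocorticoid-induced genes, NOX_6_18 against vehicle in fl/fl mice, in liver (blue) and WAT (orange), ordered by the liver value. Filled symbols passed the edgeR threshold: 17 in liver, all to the right of 0, and 14 in WAT, of which 4 lie to the left.

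Hepatocyte markers in liver were called in both directions. Of 10, 5 were higher (Apoa1, Serpina1c, Fgb, Tat and Ass1) and 2 lower (Alb and Apob, log2 fold changes -0.16 and -0.90). Their sums were 2890 to 2990 CPM in the controls and 3170 to 3270 CPM in the other 6. Alb was at 1930 to 2020 and 1740 to 1780 CPM, and Apoa1 at 168 to 169 and 366 to 402 CPM. Fgb is also on the acute phase list given below. Tat, Pck1 and Mertk are in both the list above and a marker list (hepatocyte, adipocyte and macrophage). Kupffer cell markers had 4 of 6 higher (sums 1260 to 1310 and 1540 to 1580 CPM), neutrophil and mast cell markers 5 of 10 higher (18.5 to 21 and 83.3 to 92.8 CPM), and erythroid markers 4 of 6 lower (5860 to 6150 and 3120 to 3400 CPM). The 5 higher ones were the neutrophil genes S100a8, S100a9, Mpo, Camp and Ngp. The mast cell genes Cpa3 (log2 fold change -0.78), Tpsb2 (-0.51) and Mcpt4 (-0.93) went the other way and were not called. These marker counts are for NOX_6_18 in fl/fl and stand beside 3.78% of all genes higher and 1.74% lower. No hepatocyte marker was at 0 in liver. The part of these cells in the liver results of the 9 genes was not tested.

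Chaperones and steroid handling genes surround the receptor. In liver 6 of 25 were higher and 1 lower with NOX_6_18, beside 3.78% and 1.74% of all genes: the chaperone genes Hsp90ab1 (511 to 520 CPM in the controls and 680 to 736 CPM in the other 6, log2 fold change 0.47), Stip1 (0.75), Fkbp4 (0.52) and Hsp90aa1 (0.60) led the list. In WAT 4 of 23 fitted were higher, among them Fkbp4 (0.77), Hsp90aa1 (0.70) and Stip1 (0.32), and 2 lower, among them H6pd (-0.43), no more than the 24.6% and 13.2% of all genes. Fkbp4, the paralogue of Fkbp5 that favours rather than restrains receptor transport, thus rose in both tissues. Over 18 paralogues of the 9 genes, 1 was higher and 3 lower of 17 fitted in WAT, beside 24.6% and 13.2% of all genes (Dusp5 -0.65, Dusp6 -0.52 and the mineralocorticoid receptor Nr3c2 -0.55 were the lower ones), and 2 were higher in liver (Dusp4 1.07 and Fkbp4).

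Inflammatory genes that glucocorticoids repress were called in both directions, and the counts of this and the next 2 lists stand beside 3.78% of all genes higher and 1.74% lower in liver and 24.6% and 13.2% in WAT. In liver 3 of 16 were higher (Il1a 0.70, Il1b 0.72, Ptgs2 1.24) and 1 lower (Mmp13 -2.27) with NOX_6_18, with a median of -0.53, and in WAT 4 were higher and 4 lower (Cxcl10 0.89, Nos2 -1.04, Ptgs2 0.42, Cxcl1 -0.41). Acute phase genes, made by hepatocytes under cytokines and glucocorticoids together, had 10 of 16 higher and 2 lower in liver. Saa2 was 0.97 and 1.11 CPM in the controls and 38.8 to 43.6 CPM in the other 6 liver libraries, and Hp was 92.1 to 93.3 and 246 to 259 CPM. In WAT 7 of 15 fitted acute phase genes were higher and 1 lower (Lcn2 1.94, Saa3 0.84). Clock genes, many of them glucocorticoid-responsive, had 1 of 17 higher and 3 lower in liver (Per1 1.20, Per3 -0.56, Dbp -0.52, Cry2 -0.64) and 2 higher and 5 lower in WAT (Per2 0.45, Dbp -0.84, Tef -0.51, Nr1d1 -0.30).

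Set beside each other in 1 fit of 16 libraries, 8 of the 9 genes were higher in WAT than in liver of fl/fl mice on vehicle and 0 lower, where 21.6% of 26751 genes were higher and 16.5% lower. The differences were large for Mt2 (log2 fold change 4.15, SE 0.14, edgeR adjusted p = 1.67e-10), Mt1 (3.28), Dusp1 (3.09), Cdkn1a (2.96) and Zbtb16 (2.33), and small for Fkbp5 (0.43), Tsc22d3 (0.37) and Sgk1 (0.22). Sgk1 lost its call after the GC and length correction (0.06, adjusted p = 0.455) and with only the 2 groups fitted (0.20, adjusted p = 0.0874), and Nr3c1 (0.06) gained one with library totals alone (1.01). Over the other 3 groups 6 were higher in WAT and Nr3c1 (-0.25), Tsc22d3 (-0.44) and Sgk1 (-0.88) lower, where 44.7% of genes were higher and 25.1% lower, but library totals alone turned these 3 to 0.85, 0.66 and 0.22. The split of all calls moved with it: 56.7% of calls in fl/fl on vehicle were higher in WAT, 88.6% with library totals and 48.4% after that correction, and over the other 3 groups 64.1%, 91.8% and 43.2%. Mitochondrially encoded genes took 42.96 to 44.88% of liver counts and 2.31 to 3.61% of WAT counts.

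The response itself differed between tissues for 6 of the 9 genes, all lower in WAT than in liver: Nr3c1, Tsc22d3, Sgk1, Dusp1, Mt1 and Mt2, beside 14.7% of all genes for NOX_6_18 and 14.2% for CKO. For NOX_6_18 the differences were -1.11 for Mt2 (SE 0.18, edgeR adjusted p = 0.00136), -0.91 for Mt1, -0.89 for Tsc22d3 and -0.75 for Dusp1. Fkbp5 (0.14, SE 0.10, adjusted p = 0.419) and Zbtb16 (0.25, SE 0.26, adjusted p = 0.651) missed the threshold, which does not show that they responded alike. That of Nr3c1 (-0.29, adjusted p = 0.0433) was near the threshold and was lost with library totals, among other settings (-0.13, adjusted p = 0.419). It was also lost on leaving out any 1 library other than WAT fl/fl vehicle 1 and liver CKO vehicle 1 or 2 (adjusted p from 0.0561 to 0.147). The direction split of all these calls was 51.1% higher in WAT for NOX_6_18, 71.9% with library totals and 21.4% after that correction, and 52.4%, 72.5% and 22.2% for CKO.

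Levels of different genes were compared as TPM, that is, after division of the counts by exon length and scaling of every library to the same sum. In WAT of fl/fl mice on vehicle the order of TPM was Dusp1 (2326 and 2334 in the 2 libraries), Mt1 (1094 and 1161), Mt2 (865 and 985), Sgk1 (296 and 300), Cdkn1a (217 and 219), Tsc22d3 (124 and 126), Nr3c1 (86.5 and 98.0), Fkbp5 (25.4 and 28.3) and Zbtb16 (13.5 and 17.6). No neighbours in that order overlapped. In the other 3 WAT groups Sgk1 and Cdkn1a overlapped or changed places, and Fkbp5 stood above Nr3c1 without overlap in fl/fl on NOX_6_18 (80.7 against 75.1) and CKO on vehicle (77.6 against 68.8) and overlapped it in CKO on NOX_6_18 (75.0 against 76.8). In liver of fl/fl mice on vehicle Dusp1 (59.9 and 61.8) stood above Sgk1 (56.1 and 57.3), and the order of these 2 was reversed in the other 3 groups (84.4 for Sgk1 and 70.3 for Dusp1 in fl/fl on NOX_6_18). Mt1 (25.8 and 25.9), Tsc22d3 (20.0 and 23.0) and Nr3c1 (19.3 and 19.9) followed, then Mt2, Cdkn1a, Fkbp5 and, lowest, Zbtb16 (0.682 and 0.686). In the other liver groups Mt2 moved above Nr3c1 and Fkbp5 above Cdkn1a.

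Genes with the most similar pattern were sought by Pearson's correlation of log2 CPM over the 8 libraries of a tissue, as a description with no test. All 8 libraries share the step between fl/fl on vehicle and the rest, so high values are common: 407 of 9808 liver genes reached 0.95 with Fkbp5 and 1616 of 12520 WAT genes did. For Fkbp5 the 5 closest in liver were S100a9 (0.999), Ndrg1, C6, Cyp26b1 and Marco (0.998 each), and in WAT Spag1, Acr, Lca5l, Prr27 and Stard10 (0.998 each). Nr3c1 in WAT was closest to Cybb (0.999), Cd93, Igf1, Cdh5 and Itpripl2, and Dusp1 to Gnai2, Ftl1, Akr1b8, Cd68 and Pltp. In liver Sgk1 was closest to Lyve1 (0.999), Pck1, Mup1, Aox3 and Fgg, Tsc22d3 to Tspan7 (0.993), Hlx, Arl4d, Tle1 and Thbd, and Mt1 to Hpd (0.994), Apoh, Sesn2, Serpina1b and Bmp2. Tsc22d3 in WAT had 1 gene above 0.95 (Poc1a, 0.952).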

How the data were processed

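RNA-seq of 16 mouse libraries was grouped by their titles. The authors deposited read counts for every gene, not normalized. The submitters' processing notes name HISAT, featureCounts 1.5.0, DESeq 1.8.3 and GRCm38 without saying what each did; the annotation release, strand setting and filters were not found in the labels or headers. Symbols came from GENCODE M21 and matched 55240 of 55421 gene IDs (99.7%). No library pair held identical values (0 pairs).

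Differences were tested by quasi-likelihood in edgeR 4.0.16 under R 4.3.3, after filterByExpr and TMM scaling, in a model with a coefficient for every group. A call is a Benjamini-Hochberg adjusted p below 0.05 across the genes fitted. One fit covered the 8 libraries of a tissue, and all 16 entered comparisons between tissues. Each SE was computed as the size of the log2 fold change divided by the root of F. A prior count of 2 was added before log2 CPM. The scripts were tested on simulated data.

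The 9 genes and all lists were chosen with earlier results of these data known. The text names the 9 genes, Gpr132 and, from each list other than markers, up to 4 called genes with the smallest adjusted p (up to 2 by mean CPM where none was called), the first 2 markers of a list, and the 5 genes most correlated with a member among those with a mean of at least 5 CPM. Alternatives were RLE size factors, library totals, no filter, a filter of 50 counts in 2 libraries, DESeq2 (1.42.0), limma-voom (3.58.1), a replicate block, other sets of groups in the fit, mitochondrial genes left out, a GC and length correction (lowess, span 0.2), and each library left out, where the remaining library of its group is assumed to vary like the others.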

Additional observations from a re-analysis of the deposited data

Results flagged for a closer look

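Each value here is a difference between 2 effects that passed the edgeR threshold when that difference itself was tested, and all are on the log2 scale. The effect of NOX_6_18 in CKO minus that in fl/fl mice was, in WAT, -1.56 for Fkbp5, -1.13 for Zbtb16, 0.53 for Nr3c1, 0.45 for Sgk1 and 0.50 for Dusp1. In liver it was -1.31 for Fkbp5, -0.85 for Tsc22d3, -0.54 for Sgk1 and -0.82 for Mt1.

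The NOX_6_18 effect in fl/fl mice, WAT minus liver, was -0.29 for Nr3c1, -0.89 for Tsc22d3, -1.12 for Sgk1, -0.75 for Dusp1, -0.91 for Mt1 and -1.11 for Mt2. The CKO effect on vehicle, WAT minus liver, was -0.41 for Nr3c1, -0.73 for Tsc22d3, -1.03 for Sgk1, -0.68 for Dusp1, -0.93 for Mt1 and -1.18 for Mt2. The NOX_6_18 difference of Nr3c1 was near the threshold (edgeR adjusted p = 0.0433). It was lost with library totals alone (-0.13, adjusted p = 0.419), with RLE size factors (-0.28, adjusted p = 0.0569) and with other settings. The CKO difference of Nr3c1 missed the threshold with library totals alone (-0.25, edgeR adjusted p = 0.0793) and when the fit held just the groups compared (-0.41, adjusted p = 0.0532). The same fl/fl vehicle libraries enter both sets, so these values are not independent of each other.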

How the results depend on the processing

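Of the 60 results for the 9 genes that passed the threshold, 54 kept direction and call under every alternative other than leaving out a library, 57 with each library left out in turn, and 52 under all of them. Reversed signs were found for results that had missed the threshold and, between tissues, for 3 that had passed it. With library totals alone, the WAT effect of NOX_6_18 in fl/fl became 0.054 for Cdkn1a, 0.0094 for Mt1 and 0.14 for Mt2, and that of CKO on vehicle 0.14 for Cdkn1a, 0.093 for Mt1 and 0.12 for Mt2. The WAT interaction became -0.12 for Cdkn1a and -0.14 for Mt1. Over the other 3 groups WAT against liver, called lower for these 3 genes, turned to 0.85 for Nr3c1, 0.66 for Tsc22d3 and 0.22 for Sgk1. The GC and length correction gave -0.027 for Tsc22d3 in WAT with NOX_6_18, interactions of 0.081 for Tsc22d3 and 0.45 for Mt2 in WAT, and tissue differences of -0.0097 for Fkbp5 (NOX_6_18), -0.067 for Fkbp5 (CKO) and -0.0070 for Zbtb16 (CKO). The filter of 50 counts gave 0.0088 for Mt2 (NOX_6_18) and 0.0073 for Cdkn1a (CKO) in WAT, and -0.0012 for the Mt1 interaction. When the fit held just the groups compared, Cdkn1a in WAT CKO was 0.00070. The cause of these changes was not tested.

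Among the 26 other glucocorticoid-induced genes, WAT counts with NOX_6_18 were 6 higher and 7 lower after the GC and length correction and 1 lower with library totals. For CKO they were 16 higher and 1 lower with totals, 6 lower after that correction and 1 lower with only the groups compared. In liver with NOX_6_18, 1 was lower with no filter, with DESeq2 and with limma-voom. Counts over all genes moved most where few were called. WAT NOX_6_18 in CKO gave 46 with DESeq2 and 9 with only the groups compared, and WAT CKO on NOX_6_18 gave 46 with DESeq2. Liver NOX_6_18 in CKO gave 15 with no filter and 34 with DESeq2, liver CKO on NOX_6_18 gave 20 with no filter, 42 with DESeq2 and 24 with only the groups compared, and the liver interaction 829 with DESeq2. The tissue difference in response was called for 7489 genes after the GC and length correction, 6054 with DESeq2 and 6518 with limma-voom for NOX_6_18, and for 7330, 5921 and 6528 for CKO.

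Same-numbered libraries of a tissue did not deviate together over the genes fitted (correlations from -0.0112 to 0.025 in WAT and from -0.0274 to 0.00597 in liver over 6 pairs of groups each). No pairing by number was seen, but one that touches few genes would not show in correlations over all genes. Same-numbered WAT and liver libraries were not compared. With the replicate block, WAT calls over all genes were 2 for NOX_6_18 in CKO and 5 for CKO on NOX_6_18, and the tissue difference of Nr3c1 for NOX_6_18 was -0.29 (edgeR adjusted p = 0.0544).

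With each library left out, the listed genes called lower ranged from 2 to 4 (WAT, NOX_6_18), 1 to 3 (WAT, CKO) and 0 to 1 (liver, NOX_6_18). In WAT, Mt2 ranged from -0.16 to 0.13 with NOX_6_18, and for CKO Cdkn1a from -0.065 to 0.027, Mt1 from -0.18 to 0.032 and Mt2 from -0.19 to 0.11. WAT interactions ranged from -0.16 to 0.044 for Tsc22d3, -0.025 to 0.091 for Cdkn1a, -0.077 to 0.14 for Mt1 and -0.19 to 0.10 for Mt2, and the liver interaction of Nr3c1 from -0.0125 to 0.14. The CKO tissue difference ranged from -0.012 to 0.12 for Fkbp5 and -0.11 to 0.21 for Zbtb16. Calls over all genes ranged from 3 to 13 (WAT, NOX_6_18 in CKO), 5 to 23 (WAT, CKO on NOX_6_18), 615 to 931 (liver, NOX_6_18 in fl/fl), 612 to 1012 (liver, CKO on vehicle), 8 to 28 (liver, NOX_6_18 in CKO), 12 to 22 (liver, CKO on NOX_6_18) and 288 to 344 (liver interaction). Zbtb16 had the lowest counts of the 9 genes, from 125 in liver.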
